A study of Mus musculus with 8 samples.

Results

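The mitochondrial respiratory chain subunit genes were followed in the brains of mice with an autoimmune attack on myelin. The members were chosen by gene symbol: those that begin with Cox4i, Cox5, Cox6, Cox7 or Cox8 (subunits of complex IV), with Uqcr (complex III), or with Nduf followed by a, b, c, s or v (complex I, without the Ndufaf assembly factors), and the 4 subunits of complex II, Sdha to Sdhd. Pseudogene symbols, of which there was 1, were left out. This gave 62 of the 22180 genes that have a probe set of their own on the array: 32 of complex I, 4 of complex II, 7 of complex III, 17 of complex IV, and Ndufa4 with its relative Ndufa4l2, which were kept apart because the Ndufa4 protein is now known as a subunit of complex IV. Another 9 genes with matching symbols had no probe set that carries their symbol alone and were not analysed here.

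Each of 8 Affymetrix arrays measured total RNA of 1 brain sample, taken on day 14 after immunization with myelin oligodendrocyte glycoprotein (MOG), the time the labels give as the peak of disease. All 4 groups of 2 arrays were immunized, so none of the comparisons addresses the disease itself. Genotype was read from coat colour, black in wild-type mice and yellow in C57BL/6Je/e mice, here called e/e. These lack a working Mc1r, the receptor through which melanocortins act on pigment cells. Mice of each genotype received PBS (phosphate-buffered saline) as control or NDP-MSH, a stable synthetic relative of the peptide hormone alpha-MSH and an agonist of melanocortin receptors. The dose was 5 µg per mouse into a vein, repeated on days 8, 10 and 12. The labels give no injection days for PBS, no age or sex, no strain for the wild-type mice, and do not say that the 2 samples of a group were separate animals. The p-values therefore reflect only how far these samples scatter, which may be technical.

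The respiratory chain lies in the inner mitochondrial membrane. Complex I takes electrons from NADH and complex II takes them from succinate, and both hand them to ubiquinone. Complex III passes them on to cytochrome c and complex IV to oxygen, while complexes I, III and IV pump protons whose return through ATP synthase drives the synthesis of ATP. Complexes I, III and IV combine subunits made from nuclear genes, as all members here are, with subunits encoded by mitochondrial DNA. Neurons depend on this chain for most of their ATP, and damage to it has long been studied in inflamed myelinated tissue.

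The deposited values, taken as log2, are centred for each probe set on its median over the 8 arrays. A value of 0 is therefore the middle of the 8 arrays, not absence. The presence of brain markers cannot be read from these values. For the level of a member there is only a coarse class of signal before centring, drawn from the stored precision. All probe sets were at 8 or above for 34 members and at 4 to 8 for 23, and the other members had both. Members were averaged over their probe sets (57 members had 1 and 5 had 2). Several arrays stood apart from the rest in lists of regional and sex-linked genes. All 11 cerebellar genes were lower on both wild-type NDP-MSH arrays than on both wild-type PBS arrays (18.9% of all genes) and 8 passed the test, and the median of the list was -2.24 and -1.72 on these arrays against -0.087 to 0.35 on the other 6. The pituitary hormone genes Prl and Gh stood at 6.97 and 6.54 on wild-type NDP-MSH 1 alone, and the olfactory bulb genes Cdhr1 and S100a5 at 2.23 and 2.54 on wild-type NDP-MSH 2. The Y-linked gene Eif2s3y stood at 2.04, 2.78 and 2.87 on e/e PBS 2 and both e/e NDP-MSH arrays and between -0.19 and 0.018 on the other 5. Xist, the RNA of the inactive X chromosome, stood at -0.56 on wild-type NDP-MSH 2 and between 0.56 and 0.67 on the other wild-type arrays. The part of these differences in the results was not tested. In a brain sample, fewer cells of a type, less RNA per cell and a different share of regions cannot be told apart.

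Most respiratory chain members reached their highest value on a single array, wild-type NDP-MSH 2. The median of the 62 members was -0.038 and -0.038 in wild-type PBS, 0.0057 and 0.23 in wild-type NDP-MSH, 0.031 and -0.051 in e/e PBS, and 0.063 and -0.0074 in e/e NDP-MSH. Over all 22180 genes the array medians lay between -0.0072 and 0.015. Wild-type NDP-MSH 2 was the highest of the 8 arrays for 44 of the 62 members (71.0%), against 25.0% of all genes, and 58 members were above 0 there. These 44 were 24 of 32 members of complex I, 2 of 4 of complex II, 5 of 7 of complex III, 11 of 17 of complex IV, and both Ndufa4 and Ndufa4l2. At the other end, e/e PBS 2 was the lowest array for 17 members (27.4%, against 17.0% of all genes), and only 11 members were above 0 on it.

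**Figure D1:**
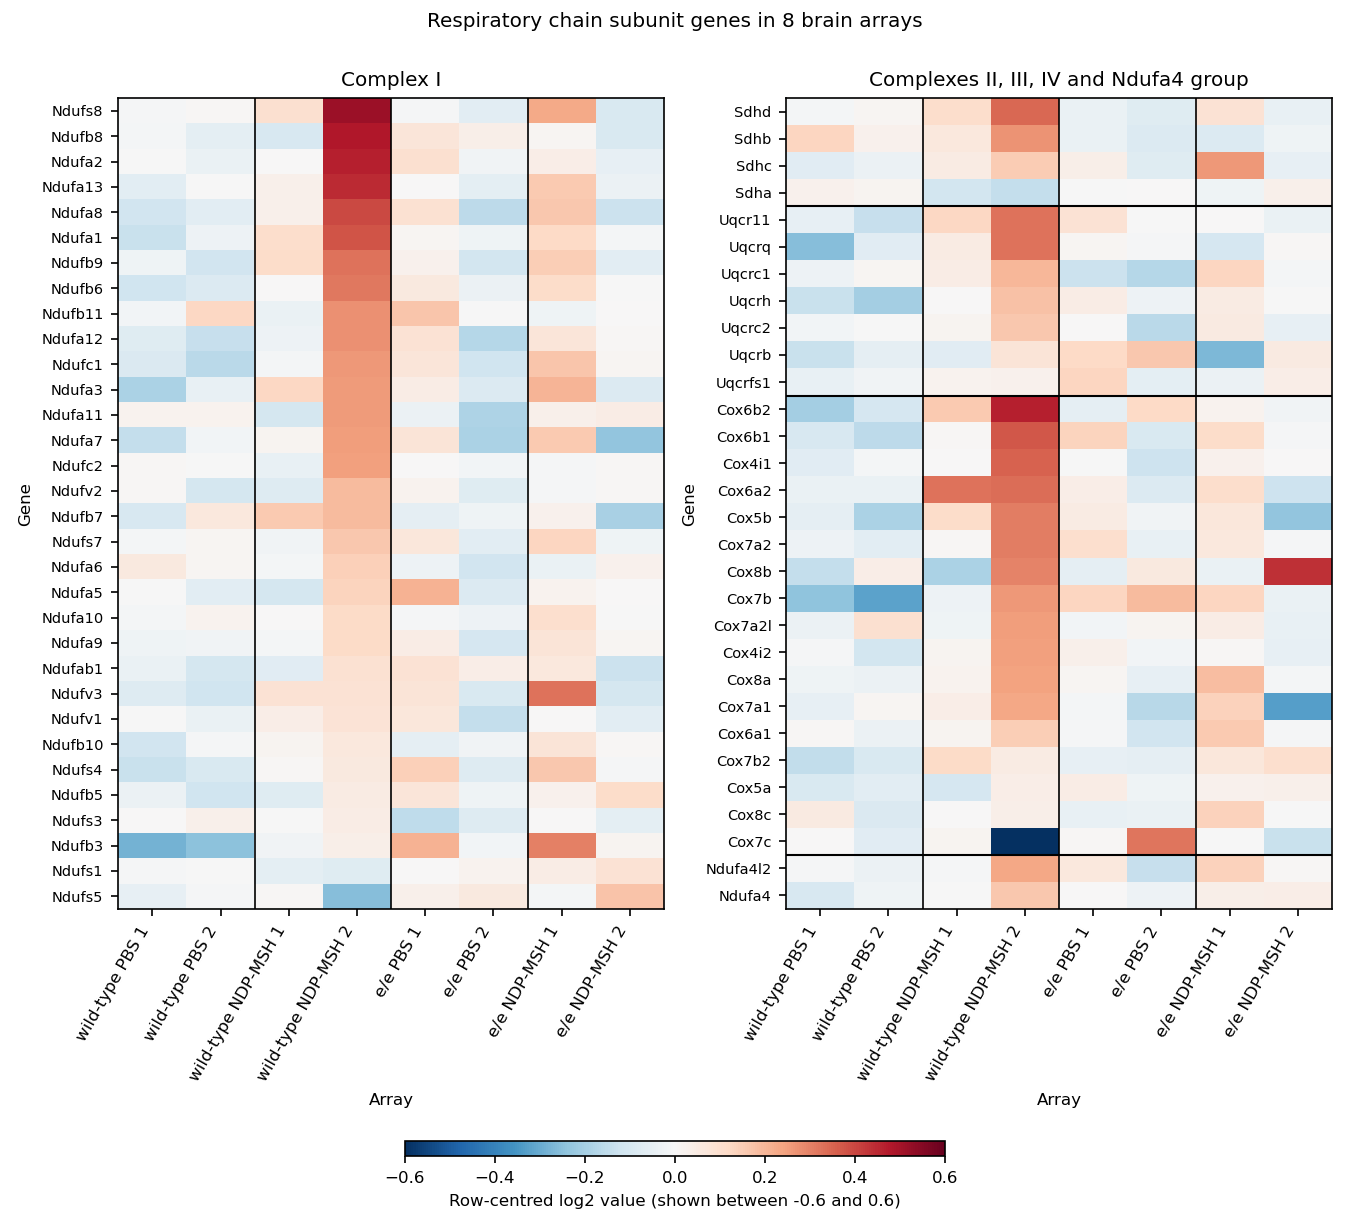
Heat map of the 62 members (rows, gene symbols, grouped by complex) on the 8 arrays (columns), coloured by row-centred log2 value between -0.6 and 0.6, with rows ordered within a complex by the value on wild-type NDP-MSH 2. That column is red for most rows in each complex, 44 of 62 members being highest there, while Cox7c, Ndufs5, Ndufs1 and Sdha are lowest there.

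Cox7c, a small membrane subunit of complex IV, went the other way and had the widest range of any member. Its values were 0.0016 and -0.066 in wild-type PBS, 0.018 and -0.64 in wild-type NDP-MSH, 0.0069 and 0.32 in e/e PBS, and -0.0016 and -0.13 in e/e NDP-MSH. It was lowest on the array where most members were highest, and highest on e/e PBS 2, where most were below 0. Ndufs5, an accessory subunit of complex I, was also lowest on wild-type NDP-MSH 2, at -0.25 against -0.049 to 0.17 elsewhere. Ndufs1, the large iron-sulfur subunit of complex I, stood at -0.071 there, and Sdha, the flavoprotein of complex II, at -0.14. These were the only 4 members that were lowest on this array, and the remaining 14 lay within the range of the other 7 arrays. Cox7c and Ndufs5 each have 1 probe set with a signal of 4 to 8 before centring, and Ndufs1 and Sdha 1 at 8 or above.

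The promoters of genes of the chain are known for sites of NRF1, ETS-family factors, YY1 and CREB. Since many members were high on the same array, their promoters were searched on both strands for GCATGCGC (NRF1), CCGGAAG (ETS), AAGATGGC (YY1) and TGACGTCA (CREB), which do not contain one another, and are shown here for 4 members with a match and 2 without that were highest on wild-type NDP-MSH 2, and for 2 that were lowest there, all chosen after their values and matches were seen. RefSeq (GRCm38.p6) gave windows of 300 bases, 250 before the start and 50 after it, for 50 of the 62 members (52 windows). The NRF1 letters were in 7 of these (13.5%, against 2.71% of all 32851 windows), the ETS letters in 11 (21.2% against 8.86%), the YY1 letters in 6 (11.5% against 2.75%) and the CREB letters in 3 (5.77% against 1.79%). At least 1 of the 4 was in 23 windows (44.2%), against 14.7% of all windows. A match was present in 20 of the 36 members with a window that were highest on wild-type NDP-MSH 2 and absent from 16, present in 0 of 3 that were lowest there, and present in 3 of the other 11. Whether matches go with the values was not tested. In each sequence, read 5′ to 3′ on the strand of the gene from 250 bases before the start to 25 after it, capitals mark a match, in the letters above or in their reverse complement. The first, Uqcr11 (chr10:80406797-80407071, minus strand), holds an ETS and an NRF1 match. Cox6b1 (chr7:30626090-30626364, minus strand) and Ndufs8 (chr19:3912750-3913024, minus strand) hold an ETS match, and Ndufa8 (chr2:36049314-36049588, minus strand) holds an NRF1 match. Cox6b2 (chr7:4753070-4753344, minus strand) and Ndufa1 (chrX:37191214-37191488, minus strand), which were also highest there, and Cox7c (chr13:86046771-86047045, minus strand) and Ndufs5 (chr4:123718162-123718436, minus strand), which were lowest, hold none of the 4, which says only that these letters are not in the window.
Uqcr11: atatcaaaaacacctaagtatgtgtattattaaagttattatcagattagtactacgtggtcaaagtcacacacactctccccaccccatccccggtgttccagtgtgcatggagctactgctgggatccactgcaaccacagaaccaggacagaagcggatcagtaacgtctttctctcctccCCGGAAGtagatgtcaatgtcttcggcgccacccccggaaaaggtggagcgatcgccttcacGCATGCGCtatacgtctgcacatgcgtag
Cox6b1: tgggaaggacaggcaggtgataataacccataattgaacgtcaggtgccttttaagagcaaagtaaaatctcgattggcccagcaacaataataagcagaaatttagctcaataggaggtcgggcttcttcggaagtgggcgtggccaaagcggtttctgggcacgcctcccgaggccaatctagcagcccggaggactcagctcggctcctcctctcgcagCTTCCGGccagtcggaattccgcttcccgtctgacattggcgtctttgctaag
Ndufs8: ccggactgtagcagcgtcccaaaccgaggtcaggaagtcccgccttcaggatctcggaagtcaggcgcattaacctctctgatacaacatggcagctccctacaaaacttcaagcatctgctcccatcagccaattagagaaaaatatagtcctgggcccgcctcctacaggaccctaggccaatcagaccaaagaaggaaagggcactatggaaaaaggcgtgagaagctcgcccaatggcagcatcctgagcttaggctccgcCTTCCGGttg
Ndufa8: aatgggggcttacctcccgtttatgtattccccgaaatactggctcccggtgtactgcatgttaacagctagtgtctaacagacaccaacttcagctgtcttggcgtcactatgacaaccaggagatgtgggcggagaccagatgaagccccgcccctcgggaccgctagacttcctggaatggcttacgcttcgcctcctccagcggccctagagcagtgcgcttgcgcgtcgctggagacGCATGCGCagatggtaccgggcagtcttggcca
Cox6b2: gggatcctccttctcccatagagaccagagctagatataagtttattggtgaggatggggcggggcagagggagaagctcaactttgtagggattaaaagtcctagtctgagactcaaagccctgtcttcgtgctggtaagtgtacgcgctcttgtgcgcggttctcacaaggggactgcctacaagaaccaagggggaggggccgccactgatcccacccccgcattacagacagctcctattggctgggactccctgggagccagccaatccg
Ndufa1: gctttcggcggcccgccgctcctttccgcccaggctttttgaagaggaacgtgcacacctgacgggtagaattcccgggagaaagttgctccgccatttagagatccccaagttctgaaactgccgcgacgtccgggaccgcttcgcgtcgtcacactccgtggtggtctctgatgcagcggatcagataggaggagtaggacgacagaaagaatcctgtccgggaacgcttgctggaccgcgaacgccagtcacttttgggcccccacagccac
Cox7c: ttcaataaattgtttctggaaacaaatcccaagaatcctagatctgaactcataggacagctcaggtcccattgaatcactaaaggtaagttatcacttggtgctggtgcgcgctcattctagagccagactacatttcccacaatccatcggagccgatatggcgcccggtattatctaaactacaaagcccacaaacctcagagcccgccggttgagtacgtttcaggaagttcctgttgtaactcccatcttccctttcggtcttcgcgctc
Ndufs5: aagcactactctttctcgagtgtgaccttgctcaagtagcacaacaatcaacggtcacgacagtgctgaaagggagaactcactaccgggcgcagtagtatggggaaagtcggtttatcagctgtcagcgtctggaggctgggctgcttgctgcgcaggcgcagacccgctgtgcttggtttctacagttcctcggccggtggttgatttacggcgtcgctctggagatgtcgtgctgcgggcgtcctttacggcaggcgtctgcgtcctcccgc

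The first comparison of the design asks what NDP-MSH changed in wild-type brain. No member passed the threshold of 0.05 on the Benjamini-Hochberg adjusted p over all genes in limma's moderated test, where 39 of 22180 genes (0.176%) did. The smallest adjusted p of a member was 0.238, for Cox6b2. At an unadjusted p under 0.05, 13 members were higher and 0 lower after NDP-MSH (21.0% higher, against 6.72% of all genes, and 5.6% of all genes lower). The member differences leaned one way: 58 of 62 were above 0 (93.5%, against 55.0% of all genes), with a median of 0.15 on the log2 scale against 0.018 over all genes. In 39 members both NDP-MSH arrays lay above both PBS arrays (62.9%, against 25.3% of all genes), and in 2, Ndufs1 and Sdha, both lay below (3.23% against 18.9%). Without wild-type NDP-MSH 2 the median difference was 0.054 and 47 members were above 0. Wild-type NDP-MSH 1 taken alone lay above both PBS arrays for 41 members (66.1%, against 37.5% of all genes), and wild-type NDP-MSH 2 alone for 57 (91.9% against 44.7%).

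**Figure D2:**
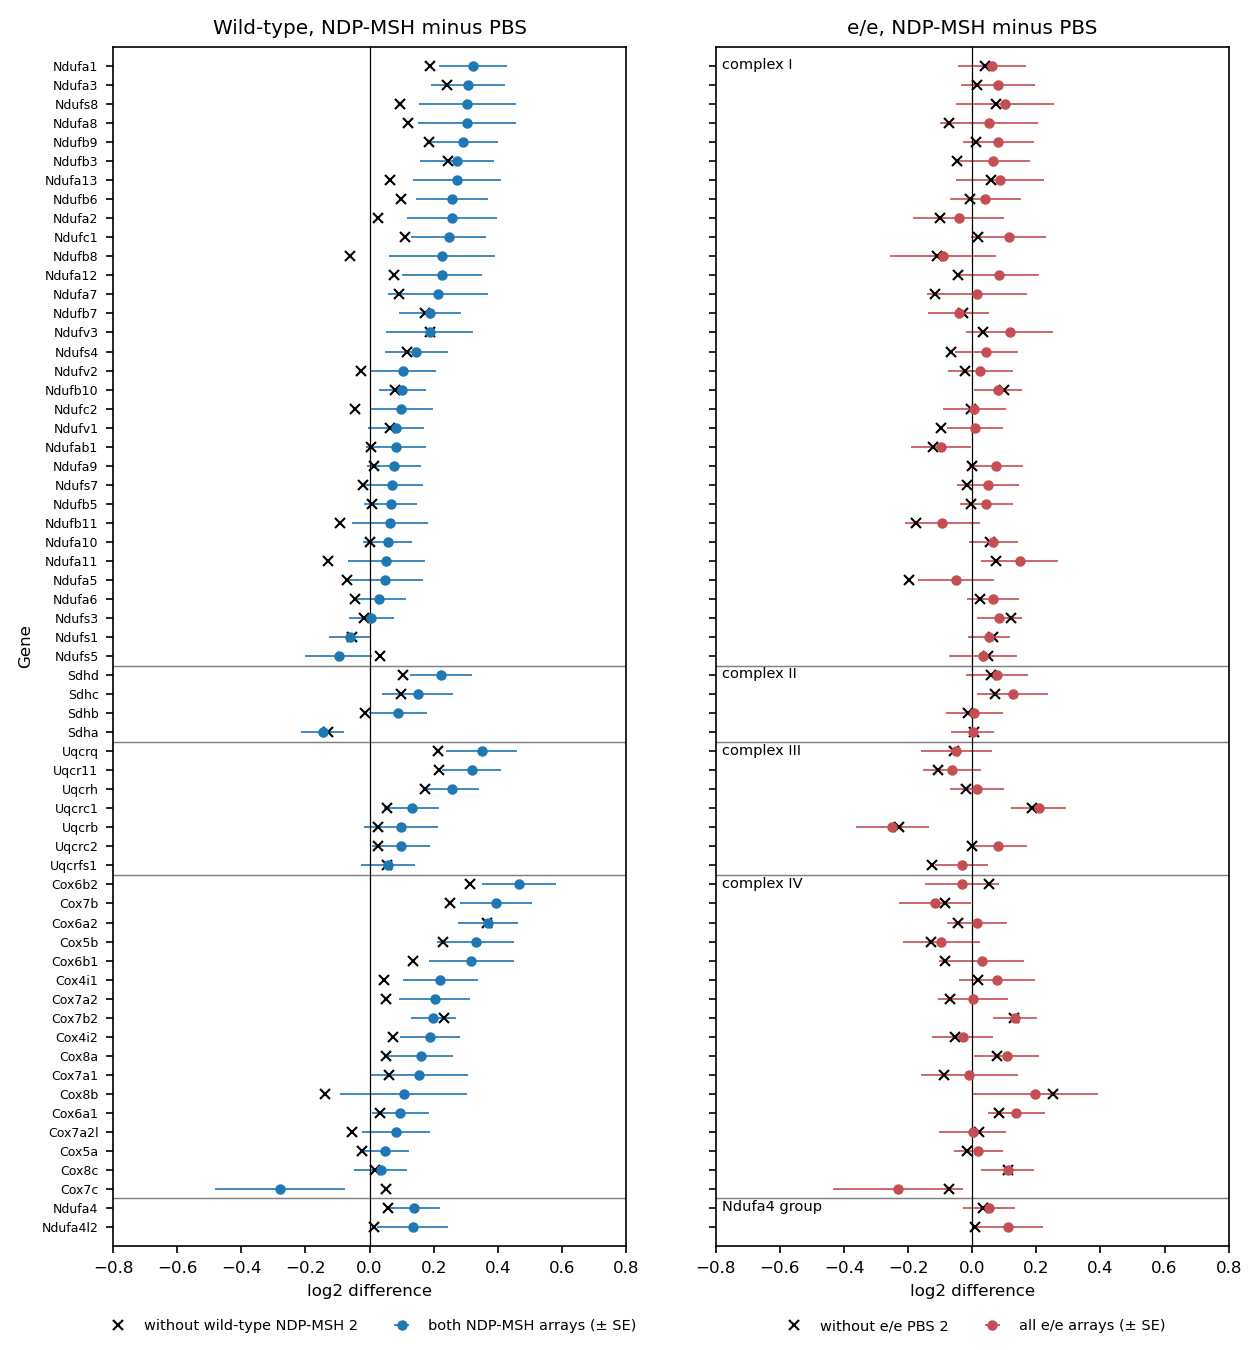
Log2 differences, NDP-MSH minus PBS, of the 62 members (rows, grouped by complex) in wild-type (left) and e/e mice (right), as points with the standard error of the limma fit (2 arrays per group), and crosses for the difference without wild-type NDP-MSH 2 (left) or without e/e PBS 2 (right). In wild-type mice 58 of 62 points lie above 0 and most crosses lie closer to 0, with a median of 0.054 against 0.15, and in e/e mice the points lie on both sides of 0.

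Complex I, which takes in electrons from NADH, had a median wild-type difference of 0.125, and 30 of its 32 members were above 0. Without wild-type NDP-MSH 2 the median was 0.048 and 22 were above 0, and without wild-type NDP-MSH 1 the median was 0.23. Its 6 core subunits, which form the arm that holds the flavin and the iron-sulfur clusters (Ndufs1, Ndufs3, Ndufs7, Ndufs8, Ndufv1 and Ndufv2), had a median of 0.077, and the 26 accessory members one of 0.19. This difference between core and accessory subunits was not tested. Ndufa1, an accessory subunit of the membrane arm needed for assembly, had the smallest p and the highest difference in complex I. Its values were -0.13 and -0.033 in wild-type PBS, 0.10 and 0.38 in wild-type NDP-MSH, 0.013 and -0.027 in e/e PBS, and 0.12 and -0.013 in e/e NDP-MSH. Both NDP-MSH arrays lay above both PBS arrays in wild-type mice, with a difference of 0.32 ± 0.11 (SE, n = 2 arrays per group; adjusted p 0.314). Ndufs8, a core iron-sulfur subunit, was the member with the highest value of all on wild-type NDP-MSH 2, with -0.0073 and 0.0060 in wild-type PBS, 0.094 and 0.52 in wild-type NDP-MSH, -0.0060 and -0.062 in e/e PBS, and 0.23 and -0.091 in e/e NDP-MSH. The second-highest array was e/e NDP-MSH 1, and its wild-type difference was 0.31 ± 0.15 (SE; adjusted p 0.458). Ndufs5 had the lowest difference in complex I, -0.096 ± 0.11 (SE; adjusted p 0.742), and without wild-type NDP-MSH 2 it turned to 0.034.

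Complex II, succinate dehydrogenase, is shared with the citric acid cycle and has no subunit from mitochondrial DNA. Its 4 genes did not share 1 direction, and their median of 0.12 was 0.043 without wild-type NDP-MSH 2 and 0.196 without wild-type NDP-MSH 1. Sdha, the catalytic flavoprotein, had 0.027 and 0.014 in wild-type PBS, -0.11 and -0.14 in wild-type NDP-MSH, -0.0033 and 0.0033 in e/e PBS, and -0.026 and 0.029 in e/e NDP-MSH. Both wild-type NDP-MSH arrays were its 2 lowest, and the difference was -0.15 ± 0.067 (SE; adjusted p 0.427). Sdhb, the iron-sulfur subunit, had 0.13 and 0.026 in wild-type PBS, 0.065 and 0.27 in wild-type NDP-MSH, -0.041 and -0.081 in e/e PBS, and -0.083 and -0.026 in e/e NDP-MSH, with overlapping wild-type groups and a difference of 0.089 ± 0.090 (SE). The membrane anchors were above 0: Sdhd had -0.014 and 0.014 in PBS and 0.10 and 0.34 in NDP-MSH in wild-type mice, a difference of 0.22 ± 0.097 (SE; adjusted p 0.407). Sdhc, the other anchor, had -0.066 and -0.035 in PBS and 0.049 and 0.15 in NDP-MSH, a difference of 0.15 ± 0.11 (SE; adjusted p 0.613). In both anchors the wild-type groups did not overlap (25.3% of all genes).

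All 7 members of complex III were above 0 in the wild-type comparison, with a median of 0.13, and in 6 of them the groups did not overlap (25.3% of all genes). The largest differences were in small subunits that surround the catalytic core. Uqcr11 had the smallest p of the complex, with -0.048 and -0.14 in wild-type PBS, 0.12 and 0.33 in wild-type NDP-MSH, 0.087 and -0.0021 in e/e PBS, and 0.0021 and -0.041 in e/e NDP-MSH. Wild-type NDP-MSH 1 and 2 were its 2 highest arrays, and the difference was 0.32 ± 0.091 (SE; adjusted p 0.275). Uqcrq, a ubiquinone-binding subunit, had -0.26 and -0.070 in PBS and 0.049 and 0.32 in NDP-MSH and a difference of 0.35 ± 0.11 (SE; adjusted p 0.305). Uqcrh, the hinge protein at the cytochrome c side, had -0.13 and -0.21 in PBS and 0.0033 and 0.17 in NDP-MSH and one of 0.26 ± 0.084 (SE; adjusted p 0.314). The Rieske iron-sulfur protein, Uqcrfs1, had the smallest difference of the complex, 0.058 ± 0.083 (SE). Without wild-type NDP-MSH 2 the 7 differences were still above 0, with a median of 0.056, and without wild-type NDP-MSH 1 the median was 0.21.

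Complex IV, cytochrome c oxidase, held the largest member differences. Its median was 0.19, 16 of 17 members were above 0 (55.0% of all genes), and in 12 the groups did not overlap (25.3% of all genes). Without wild-type NDP-MSH 2 the median was 0.052 and 14 members were above 0, and without wild-type NDP-MSH 1 the median was 0.30. Cox6b2, the isoform of subunit 6b best known from testis, had -0.20 and -0.10 in wild-type PBS, 0.16 and 0.47 in wild-type NDP-MSH, -0.052 and 0.12 in e/e PBS, and 0.023 and -0.023 in e/e NDP-MSH. It was highest on both wild-type NDP-MSH arrays, and the difference was 0.47 ± 0.12, a 1.38-fold change (SE; adjusted p 0.238). Cox6a2, the isoform of heart and skeletal muscle, had -0.038 and -0.042 in wild-type PBS, 0.33 and 0.33 in wild-type NDP-MSH, 0.038 and -0.083 in e/e PBS, and 0.11 and -0.12 in e/e NDP-MSH. Its wild-type NDP-MSH arrays were nearly equal and above the other 6. Its difference was 0.37 ± 0.094 (SE; adjusted p 0.239) and stayed at 0.37 without wild-type NDP-MSH 2. Cox6b2 and Cox6a2 each have 1 probe set, with a signal of 4 to 8 before centring. Of the 8 skeletal muscle markers, 7 had a wild-type difference above 0 (55.0% of all genes), with a median of 0.10. Their array medians were 0.040 and 0.10 on the wild-type NDP-MSH arrays, and none passed the test. In e/e mice 7 of the 8 markers were also above 0 (53.7% of all genes), with a median of 0.089, and Cox6a2 was at 0.015 ± 0.094 (SE). The part of muscle RNA in the Cox6a2 value was not tested. Cox7c was the only member of the complex below 0, at -0.28 ± 0.20 (SE; adjusted p 0.609), and without wild-type NDP-MSH 2 it turned to 0.05.

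Vertebrates carry paired genes for several complex IV subunits, one used broadly and others in muscle, lung or testis. The broadly used Cox4i1 was at -0.070 and -0.013 in PBS and 0.0038 and 0.36 in NDP-MSH in wild-type mice, a difference of 0.22 ± 0.12 (SE), and Cox4i2, the isoform known from lung and from oxygen-sensing cells, at -0.0058 and -0.11 in PBS and 0.014 and 0.24 in NDP-MSH, one of 0.19 ± 0.094 (SE). In both, NDP-MSH 2 stood apart while NDP-MSH 1 lay just above the upper PBS array. Cox6b1 had -0.097 and -0.16 in PBS and 0.0091 and 0.37 in NDP-MSH, a difference of 0.32 ± 0.13 (SE), beside 0.47 ± 0.12 for Cox6b2. In the 6a pair Cox6a1 was at 0.096 ± 0.089 (SE), and in the 7a family Cox7a2 at 0.20 ± 0.11, the muscle isoform Cox7a1 at 0.15 ± 0.15 and Cox7a2l, a factor of respiratory supercomplexes, at 0.082 ± 0.11. Cox7b2 had -0.15 and -0.090 in wild-type PBS, 0.11 and 0.048 in wild-type NDP-MSH, -0.048 and -0.052 in e/e PBS, and 0.067 and 0.10 in e/e NDP-MSH, with both NDP-MSH arrays above both PBS arrays in each genotype, a wild-type difference of 0.20 ± 0.069 (SE; adjusted p 0.331) and an e/e difference of 0.13 ± 0.069 (SE; adjusted p 1). In the 8 family Cox8a was at 0.16 ± 0.10, Cox8b at 0.11 ± 0.20 and Cox8c at 0.035 ± 0.083 (SE), and Cox8b, the muscle isoform, had its highest value on e/e NDP-MSH 2 (0.44) and its lowest on wild-type NDP-MSH 1 (-0.19). Ndufa4 had -0.094 and -0.025 in PBS and -0.0024 and 0.16 in NDP-MSH and a difference of 0.14 ± 0.080 (SE), and Ndufa4l2, which is known to be induced by low oxygen, -0.0063 and -0.037 in PBS and -0.0073 and 0.23 in NDP-MSH and one of 0.13 ± 0.11 (SE). Before centring, the signal was 8 or above for Cox4i1, Cox6a1, Cox6b1, Cox7a2, Cox8a and Ndufa4. It was 4 to 8 for Cox4i2, Cox7a1, Cox7a2l, Cox7b2, Cox8b, Cox8c and Ndufa4l2. No difference between isoforms was tested.

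**Figure D3:**
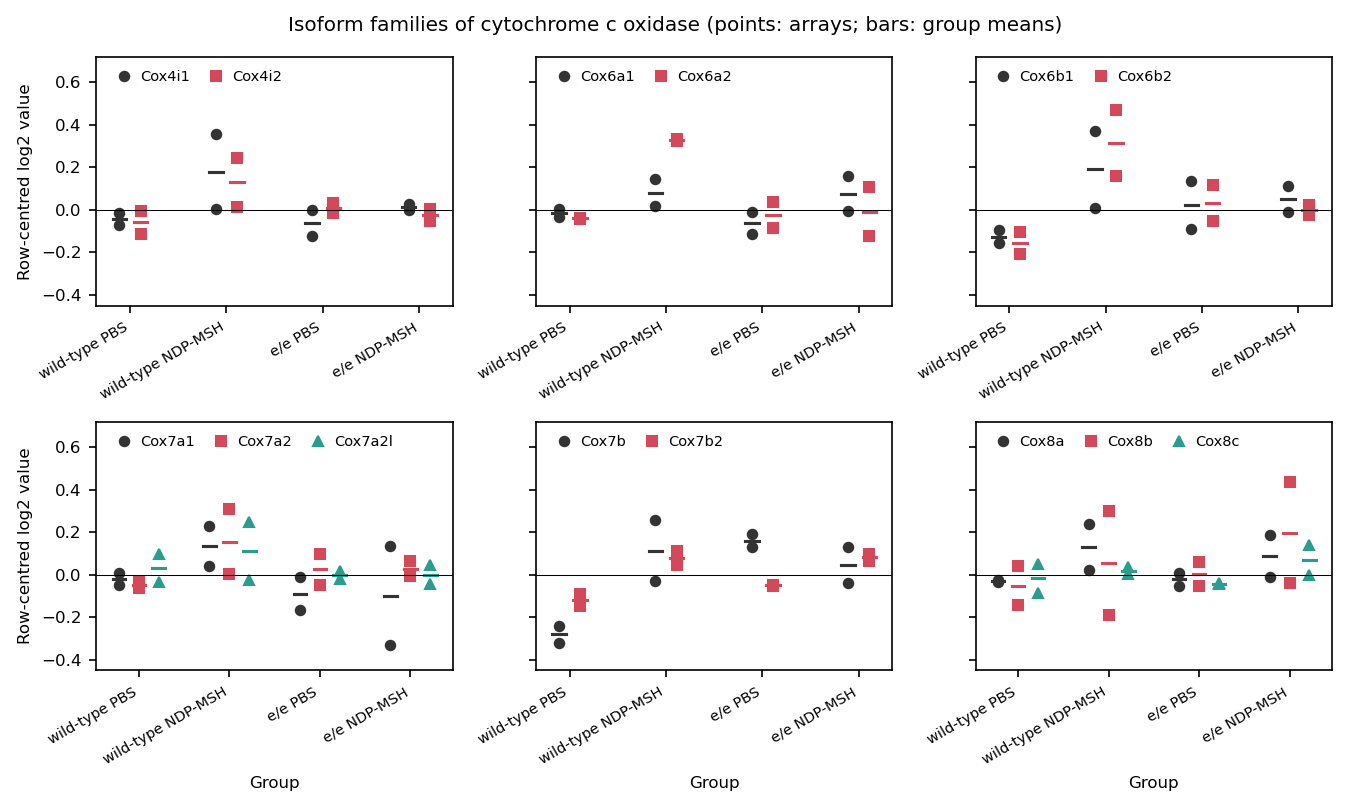
Row-centred log2 values of 6 isoform families of complex IV in the 4 groups, with 1 point for each of the 2 arrays of a group and a bar for their mean. Cox6a2 lies at 0.33 on both wild-type NDP-MSH arrays, in most other genes the 2 wild-type NDP-MSH arrays are far apart, and Cox7b is lower on both wild-type PBS arrays than on the other 6.

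Cox7b, a nuclear subunit of complex IV whose loss in humans causes a developmental eye and skin disorder, was set apart by its wild-type PBS arrays. Its values were -0.24 and -0.32 in wild-type PBS, -0.030 and 0.26 in wild-type NDP-MSH, 0.13 and 0.19 in e/e PBS, and 0.13 and -0.039 in e/e NDP-MSH. Both wild-type PBS arrays lay below the other 6, and the wild-type difference was 0.39 ± 0.11 (SE; adjusted p 0.267). The gene has 2 probe sets, and only the second had this pattern, with -0.42 and -0.096 on wild-type PBS 1 and 2 and at least -0.078 on the other 6. The first stood at -0.060 and -0.55 on wild-type PBS 1 and 2, and at -0.090 on wild-type NDP-MSH 1, so that its wild-type groups overlapped. Ndufa11, a membrane-arm subunit of complex I that also has 2, was another case, with -0.26 and 0.048 on wild-type NDP-MSH 1.

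Other genes of the same machinery were read from lists. No gene of the lists that follow passed the threshold in the wild-type comparison. Of 18 genes of ATP synthase, 13 had a wild-type difference above 0, with a median of 0.15 and an array median of 0.21 on wild-type NDP-MSH 2. Atp5l and Atp5mpl were at 0.42 ± 0.20 and 0.41 ± 0.14, and Atp5j2 at -0.19 ± 0.10 (SE). Of 14 assembly factors, 13 of complex I and Lyrm7 of complex III, 13 were above 0 (median 0.21), with Timmdc1 at 0.38 ± 0.095 (SE), and in 12 the groups did not overlap (25.3% of all genes). Of 27 assembly factors of complexes II to IV 26 were above 0 (median 0.10), led by Coa3, a factor for the first steps of complex IV assembly, at 0.51 ± 0.091 (SE; adjusted p 0.13). A mixed list held cytochrome c, the electron transfer flavoproteins, enzymes that make ubiquinone or reduce it, and Cyc1 of complex III. All 13 of its genes were above 0, among them Cycs, cytochrome c itself, at 0.26 ± 0.097 (SE). All 15 mitochondrial ribosomal and import proteins were above 0, with the highest median of these lists (0.26) and Mrpl20 at 0.42 ± 0.15 (SE). For 16 genes of the citric acid cycle the median was 0.019 with 9 above 0, and for 14 of glycolysis 0.041 with 9 above 0. Among 13 regulators of mitochondrial biogenesis 5 were above 0 (median -0.067), and Ppargc1b, a coactivator of mitochondrial genes, stood at -0.43 ± 0.13 (SE; adjusted p 0.297).

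The subunits that mitochondrial DNA encodes for the same complexes were not high on wild-type NDP-MSH 2. The median of the 10 that the array names (ND1, ND2, ND3, ND4, ND4L, ND5, ND6, CYTB, COX1 and COX3) was -0.027 and -0.043 in wild-type PBS, 0.0092 and -0.045 in wild-type NDP-MSH, 0.036 and 0.0066 in e/e PBS, and 0.024 and 0.015 in e/e NDP-MSH. It was about as low on wild-type NDP-MSH 2 as on wild-type PBS 2. Their median wild-type difference was 0.024 with 6 of 10 above 0, and single differences ran from -0.025 for COX1, a catalytic subunit of complex IV, to 0.10 for ND6, the one subunit of complex I read from the other strand. The difference between nuclear and mitochondrial subunits was not tested.

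**Figure D4:**
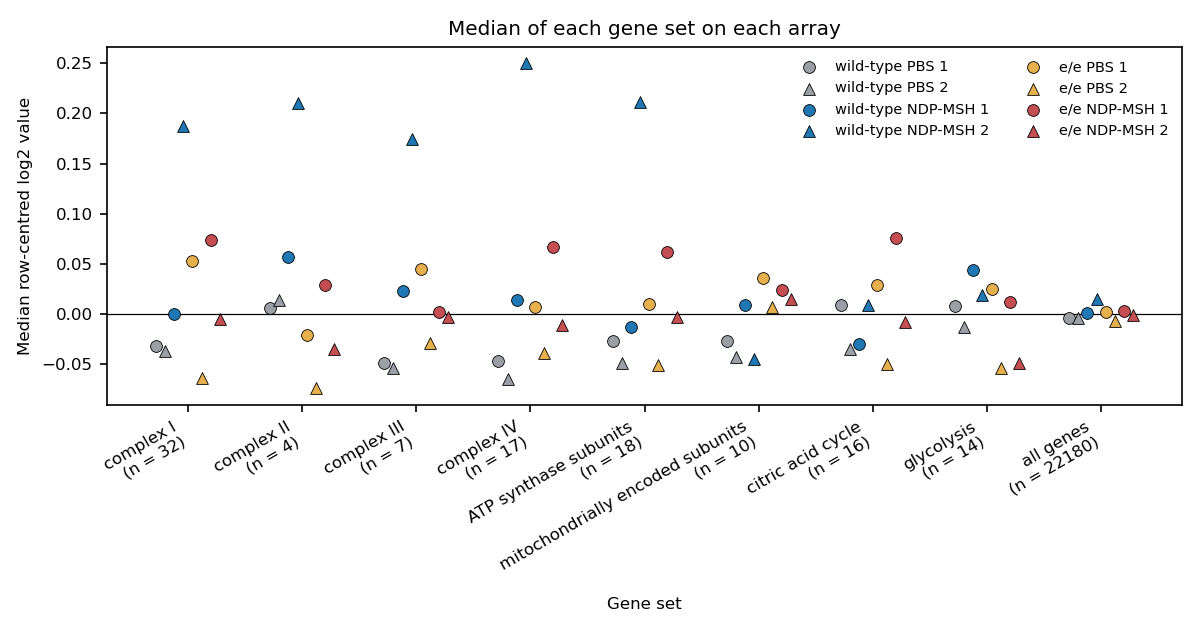
Median row-centred log2 value of each gene set (horizontal axis, with the number of genes) on each of the 8 arrays (colour for group, circle for replicate 1 and triangle for replicate 2). The wild-type NDP-MSH 2 triangle lies between 0.17 and 0.25 for complexes I to IV and at 0.21 for ATP synthase, and at -0.045 for the mitochondrially encoded subunits, 0.0088 for the citric acid cycle and 0.019 for glycolysis.

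Cell-type markers beside these values were uneven. The neuronal list of 8 genes had array medians from -0.092 (e/e PBS 2) to 0.086 (e/e NDP-MSH 1), with -0.0059 on wild-type NDP-MSH 2. Its median wild-type difference was 0.0525, with 7 genes above 0. All 7 oligodendrocyte genes were lower on both wild-type NDP-MSH arrays than on both PBS arrays (18.9% of all genes; array medians -0.27 and -0.34), with none past the test. Astrocyte genes had a median of -0.11 on wild-type NDP-MSH 2 and a median wild-type difference of -0.035 (2 of 7 above 0). Over 6 T cell genes the median wild-type difference was 0.15 (6 above 0), but the array medians of the 2 groups overlapped. They were -0.0105 and 0.23 in wild-type PBS and 0.47 and 0.13 in wild-type NDP-MSH. The median wild-type difference was -0.042 over 7 microglia and macrophage genes (3 above 0) and 0.071 over 8 pericyte and smooth muscle genes (5 above 0). It was -0.058 over 5 brown fat genes (2 above 0) and -0.29 over 5 choroid plexus genes (0 above 0), again with none past the test, and none of the 5 red blood cell genes had a probe set of its own. Their part in the member values was not tested.

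In e/e mice, which lack working Mc1r, the comparison of NDP-MSH with PBS gave 0 members past the threshold in limma's test, as for all genes (0.0%), with 1 member higher and 0 lower at an unadjusted p under 0.05 (1.78% of all genes in each direction). The median member difference was 0.044 against 0.0082 over all genes, and 46 of 62 were above 0 (74.2%, against 53.7% of all genes). In 11 members the NDP-MSH arrays lay above both PBS arrays (17.7%, against 16.0% of all genes) and in 4, Cox7b, Cox7c, Ndufb8 and Uqcrb, below (6.45% against 14.3%). The sign of the median rested on single arrays: it was -0.0042 when e/e PBS 2 was left out, -0.010 when e/e NDP-MSH 1 was, and 0.090 when e/e NDP-MSH 2 was. The complex medians were 0.052 for complex I, 0.042 for II, -0.033 for III and 0.015 for IV. Without e/e PBS 2 they were -0.0042, 0.032, -0.058 and -0.016. The e/e arrays differed in sex-linked genes: e/e PBS 1 was low in Eif2s3y and the other 3 were high, as given above. Xist was 0.56 on e/e PBS 1, -0.82 on e/e PBS 2, and -4.46 and -4.56 on the e/e NDP-MSH arrays. On e/e PBS 2 both genes thus lay between e/e PBS 1 and the e/e NDP-MSH arrays. The 7 microglia and macrophage markers had medians of -0.44 and -0.094 in e/e PBS and -0.59 and -0.73 in e/e NDP-MSH. All 8 neuronal genes had an e/e difference above 0 (53.7% of all genes), with a median of 0.113. The part of these genes in the e/e differences was not tested.

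The ends of the e/e range were both in complex III. Uqcrc1, a core protein of the complex, had -0.031 and 0.0098 in wild-type PBS, 0.043 and 0.20 in wild-type NDP-MSH, -0.13 and -0.17 in e/e PBS, and 0.13 and -0.0098 in e/e NDP-MSH. Both e/e PBS arrays were its 2 lowest, and the e/e difference was 0.21 ± 0.086 (SE; adjusted p 1), the highest of any member. Uqcrb, which helps hold the ubiquinone site, had -0.13 and -0.053 in wild-type PBS, -0.068 and 0.078 in wild-type NDP-MSH, 0.12 and 0.16 in e/e PBS, and -0.27 and 0.053 in e/e NDP-MSH. Both e/e PBS arrays were its 2 highest, and the e/e difference was -0.25 ± 0.12 (SE; adjusted p 1), the lowest of any member. In complex I Ndufa11 had the highest e/e difference (0.15 ± 0.12) and Ndufab1, the mitochondrial acyl carrier protein, the lowest (-0.099 ± 0.094). In complex IV they were Cox8b (0.19 ± 0.20) and Cox7c (-0.23 ± 0.20), and in complex II Sdhc (0.13 ± 0.11) and Sdha (0.0016 ± 0.067), each with its SE and an adjusted p of 1. The e/e groups of Ndufa11 did not overlap in its first probe set taken alone. In its second they did, with 0.036 and -0.093 in PBS and 0.14 and -0.077 in NDP-MSH.

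Whether the NDP-MSH effect differed between genotypes was tested as the wild-type difference minus the e/e difference. No member passed the threshold in limma's test, nor did any gene (0.0%), and the smallest adjusted p of a member was 0.542. At an unadjusted p under 0.05, 6 members were higher and 0 lower (9.68% higher, against 3.67% of all genes, and 4.05% of all genes lower): Cox7b at 0.51 ± 0.16, Cox6b2 at 0.50 ± 0.16, Cox5b at 0.43, Uqcrq at 0.40 ± 0.16, Uqcr11 at 0.38 ± 0.13 and Cox6a2 at 0.35 ± 0.13, of which Cox5b is an addition chosen after its value was seen. All 6 belong to complexes III and IV. Before centring, Cox6b2, Cox6a2, Uqcrq and Uqcr11 were in the lower signal class, 4 to 8. Cox7b and Cox5b had 1 probe set in each class. The 6 thus held 4 of the 23 members wholly in the lower class and 0 of the 34 wholly in the upper one. The part of signal class in these differences was not tested. The median over members was 0.10, with 50 of 62 above 0 (80.6%, against 52.8% of all genes). Single arrays moved this median by more than 1.5 times: it was 0.0032 without wild-type NDP-MSH 2, 0.228 without wild-type NDP-MSH 1 and 0.19 without e/e PBS 2. In 1 member, Cox7b, both NDP-MSH arrays lay above both PBS arrays in wild-type mice and below them in e/e mice (3.17% of all genes), and in 1, Ndufs1, it was the reverse (3.26% of all genes). In each of the 2 probe sets of Cox7b taken alone the e/e groups overlapped. The lowest value was that of Sdha, -0.15 ± 0.095 (SE; adjusted p 0.756).

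The genotypes were also compared under PBS, e/e minus wild-type, a comparison that shares its wild-type arrays with the first and its e/e arrays with the second. No member and no gene (0.0%) passed the threshold in limma's test, and 2 members were higher and 0 lower at an unadjusted p under 0.05 (2.35% and 2.56% of all genes). The median was 0.038 with 42 of 62 above 0 (67.7%, against 50.1% of all genes), and it was -0.015 when e/e PBS 1 was left out and 0.084 when e/e PBS 2 was. In 20 members both e/e arrays lay above both wild-type arrays (32.3%, against 17.4% of all genes), and in 7 below (11.3% against 16.7%), among them 3 of the 4 complex II genes, Sdha, Sdhb and Sdhd. The 2 members were Cox7b, at 0.44 ± 0.11 (SE; adjusted p 0.887), and Ndufb3, an accessory subunit of the membrane arm of complex I. Ndufb3 had -0.28 and -0.25 in wild-type PBS, -0.019 and 0.035 in wild-type NDP-MSH, 0.21 and -0.016 in e/e PBS, and 0.30 and 0.016 in e/e NDP-MSH. Both wild-type PBS arrays were its lowest, and the difference was 0.36 ± 0.12 (SE; adjusted p 0.971). Uqcrh followed in complex III, with -0.13 and -0.21 in wild-type and 0.044 and -0.028 in e/e and a difference of 0.18 ± 0.084, and Uqcrb with 0.23 ± 0.12 (SE; adjusted p 0.971 for each). In the other direction Ndufs3, a core subunit of complex I, had 0.0019 and 0.029 in wild-type and -0.15 and -0.077 in e/e, a difference of -0.13 ± 0.071 (SE; adjusted p 0.978). Sdhb had 0.13 and 0.026 in wild-type and -0.041 and -0.081 in e/e and one of -0.14 ± 0.090 (SE; adjusted p 0.989). All 10 mitochondrially encoded subunits were higher in e/e than in wild-type mice under PBS, with a median of 0.063, and in 9 of them the groups did not overlap (17.4% of all genes), though none passed the threshold. Single differences ran from 0.0398 ± 0.0681 for ND5 to 0.1192 ± 0.0755 for ND4L (SE). The 10 genes were read on the same arrays, so they are not separate observations of a group. All 7 microglia and macrophage markers were lower in e/e mice under PBS (median -0.46), and e/e PBS 2 was high in Eif2s3y. The part of these in the PBS comparison was not tested.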

How the data were processed

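Total RNA of 8 mouse brain samples was measured on Affymetrix whole-transcript arrays, 2 arrays in each of 4 groups. Biotin-labelled cDNA was made with the WT Plus kit, per the labels' protocols. The values are the authors' deposited table of 33793 probe sets, taken as log2. The sources used here state neither the log base nor the summarisation, the normalization or any filter, and every log2 difference and fold rests on base 2. Every row has a median of 0 over the 8 arrays (at most 5e-07 from it), so the values themselves give only differences. The precision left in the stored values places the signal before centring at 8 or above for 8088 probe sets and at 4 to 8 for 25647, with 58 unresolved (tolerance 0.05 of a step). Column medians ran from -0.0043 to 0.014. Precision is limited by the number of arrays.

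Probe sets were named from the platform annotation: 23521 had 1 symbol and were used, 1814 had several and 8458 none. Of the used ones, 23328 matched the RefSeq table of GRCm38.p6. A gene's probe sets were averaged (1082 of 22180 genes had more than 1). limma 3.58.1 in R 4.3.3 was fitted to all 8 arrays with a coefficient for each group (4 residual and 3.45 prior degrees of freedom), and tests were moderated and two-sided, and p was adjusted over all genes by Benjamini-Hochberg with a threshold of 0.05. The method was tested on simulated data. Medians over members are descriptions without a test. Groups do not overlap where both arrays of one lie above both of the other.

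Members and gene lists were chosen with earlier results of these data known. Members named with values are, in each comparison and complex, the one with the smallest p and those with the highest and lowest difference, up to 5 of smallest p per comparison without overlap, the isoform families and complex II, and the 5 with the largest range. From the other lists up to 2 highest and 2 lowest differences are named, with fixed region and sex markers. Additional members stand as ranges, counts or examples. Red blood cell, brown fat, choroid plexus, pericyte and T cell lists were also read. As alternatives the fit was run with a block for the replicate number, with array weights, quantile normalization, centring of arrays, only the arrays compared, every probe set or the median of probe sets, signal of 8 or above, robust moderation, and each array left out. Slide and scan date were not used here. Promoters came from RefSeq. Figures used matplotlib 3.10.9, pandas 2.3.3 and Python 3.11.15.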

Additional observations from a re-analysis of the deposited data

Results flagged for a closer look

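In 2 members every NDP-MSH array moved one way against both PBS arrays in wild-type mice and the other way in e/e mice. Cox7b was higher in wild-type mice (0.39 ± 0.11, SE) and lower in e/e mice (-0.12 ± 0.11), and the difference of these effects was 0.51 ± 0.16 (limma, adjusted p 0.542), not past the threshold. The pattern is that of the mean of its 2 probe sets: in each of them the e/e groups overlapped, and in the first the wild-type groups did too. Ndufs1 was lower in wild-type mice (-0.061 ± 0.066) and higher in e/e mice (0.053 ± 0.066), with a difference of -0.11 ± 0.094 (adjusted p 0.802). The first pattern was seen in 3.17% of all genes and the second in 3.26%, so 1 of 62 members in each is no more than over all genes. Groups of 2 arrays were too small to look for outlying arrays within a group.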

How the results depend on the processing

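No member passed the threshold in any of the 4 comparisons under any of the 17 alternatives. The median member difference kept its sign under every alternative that kept all 8 arrays or the arrays compared: 0.11 to 0.16 in wild-type mice, 0.034 to 0.052 in e/e mice, 0.092 to 0.13 for the difference of the effects and 0.026 to 0.054 between genotypes under PBS. With each array left out it ran from 0.054 (without wild-type NDP-MSH 2) to 0.23 in wild-type mice, from -0.010 to 0.090 in e/e mice, from 0.0032 (without wild-type NDP-MSH 2) to 0.228 (without wild-type NDP-MSH 1) for the difference of the effects, with 0.19 without e/e PBS 2, and from -0.015 to 0.084 under PBS. The cause of these moves was not tested beyond the array left out. Quantile normalization gave the lowest wild-type median, 0.11, with 55 of 62 members above 0. Of 2133 values of the 35 named members under alternatives, 91 changed sign, none with a call.

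Counts over all genes depended more on the setting: 39 in wild-type mice became 5 to 56 under the other settings and 0 to 49 with an array left out. The other comparisons had 0 genes, and with an array left out up to 51 in e/e mice, 7 for the difference of the effects and 4 under PBS; other settings gave up to 5 for the difference of the effects.

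With the replicate number as a block the wild-type median was 0.15 and 0 members passed. Deviations of same-numbered arrays correlated between -0.25 and 0.44 over the 6 pairs of groups, so the numbers were not taken to pair the samples, and the block changed no call of a member. Row-centred values hide how far each probe set stood above background, so dim members could not be told from bright ones beyond 2 signal classes.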
